A study of Mus musculus with 12 samples.

Results

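The TRBJ2 genes are the joining (J) segments of the downstream cluster of the T cell receptor beta locus. The 6 members described here, TRBJ2-1, TRBJ2-2, TRBJ2-3, TRBJ2-4, TRBJ2-5 and TRBJ2-7, were chosen by gene name, as the J gene called on a productive beta chain (TRB) contig of a called cell. They were 6 of the 12 TRBJ genes found, and carried 7231 of 11575 such contigs, in 6636 of 10295 cells with a TRB. A clone was counted once per library as 1 TRBV gene with 1 nucleotide sequence of the CDR3, the loop that spans the V to J junction and meets the antigen. By that count the TRBJ2 genes formed 6231 of 10174 TRB clones.

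The cells were CD45+ immune cells sorted from mammary tumours of BALB/c mice. The 12 samples of the series were 8 expression libraries, 4 treated and 4 untreated, and 4 T cell receptor libraries, all labelled treated. Treatment was 3 weeks of cyclophosphamide, an alkylating chemotherapy, with pexidartinib, a kinase inhibitor of the CSF1 receptor. The ages of the mice and the number of mice behind each library are not given in the sources used here.

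The deposited contig table held 6 libraries that could be tied to a label, and they are called by the table's own tags, which the labels do not define. CTX, CTX2 and Combined were treated receptor replicates 1, 4 and 3, and CSF1R was tied by its number to the treated expression libraries. PBS1 was tied to untreated expression replicate 3. The labels of PBS2 conflict: as receptor replicate 2 it was labelled treated, whereas the expression library that the table pairs with it was labelled untreated, and so it stayed outside the comparison of treated with untreated. No label ties a library to a mouse, and the p-values below therefore measure the spread between these libraries, which may be technical.

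The libraries differed widely in size. Called cells numbered 773 in CTX, 1333 in CTX2, 986 in CSF1R, 7629 in Combined, 552 in PBS2 and 245 in PBS1, and TRBJ2 clones 260, 322, 537, 4776, 255 and 81 in the same order. Molecules counted by unique molecular identifier (UMI) ran from 6807 in PBS1 to 121305 in Combined. Support for a TRBJ2 contig was thinnest in CSF1R, with a median of 4 UMIs, and deepest in CTX2, with 14. Cells with more than 1 productive TRB made up 4.79% of TRB cells in CTX2 and 23.7% in CTX. Called cells held only 2 contigs of gamma or delta chains and 10 of immunoglobulins, which mark B cells. Barcodes shared by cells of 2 libraries numbered 33 over the 15 pairs of libraries. CTX2 and Combined carry sample names that begin with JR and the other 4 carry plain numbers, a division the labels do not explain, and values within each set are given beside the comparisons.

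A beta chain gene is assembled in the thymus, first D to J and then V to the joined DJ. The locus holds a pair of D-J-C clusters, TRBD1 with the TRBJ1 genes and TRBC1, and downstream of them TRBD2 with the TRBJ2 genes and TRBC2. TRBD1 can join a J gene of either cluster, while TRBD2 lies downstream of the TRBJ1 genes and is normally joined to TRBJ2. Because bases are trimmed and added at each joint, cells that share a J gene still differ in the middle of the CDR3, and that difference marks a clone.

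In the RefSeq table of assembly GRCm38.p6, which is of the C57BL/6J strain, all the segments lie on chromosome 6. TRBD2 occupies chr6:41542163-41542176 and is 14 bases long. TRBJ2-1 follows at chr6:41542754-41542803, with its first base 578 bases beyond TRBD2, and TRBJ2-7 is the most distal member, at chr6:41543810-41543856 and 1634 bases beyond it. TRBJ2-2 starts 781 bases beyond TRBD2, TRBJ2-3 1047, TRBJ2-4 1186 and TRBJ2-5 1277 bases. TRBJ2-6, between TRBJ2-5 and TRBJ2-7, is annotated as a pseudogene and had 0 contigs. Each TRBJ segment is a short coding exon that is spliced to the constant region. The table called TRBC1 on 7225 of the 7231 TRBJ2 contigs, TRBC2 on 0 and no constant gene on 6, so its constant gene call did not follow the cluster and was not used.

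The members differ in length and sequence, and the sequences below show the J bases that most of their clones carry in the CDR3. Each is the most common base at every position, read back from the CDR3's last base while at least 50% of that gene's clones agreed. The 5′ end of this tail is therefore set by that agreement and not by the germline segment, which was not used, and the capitals mark the whole run:
TRBJ2-1: CTATGCTGAGCAGTTCTTC
TRBJ2-2: AAACACCGGGCAGCTCTACTTT
TRBJ2-3: AGTGCAGAAACGCTGTATTTT
TRBJ2-4: GTCAAAACACCTTGTACTTT
TRBJ2-5: CCAAGACACCCAGTACTTT
TRBJ2-7: TATGAACAGTACTTC

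TRBJ2-2 gave the longest tail, with 22 bases, and TRBJ2-7 the shortest, with 15. TRBJ2-3 gave 21 bases, TRBJ2-4 20, and TRBJ2-1 and TRBJ2-5 19 each. The whole tail was matched by 64.9% ± 3.39 of TRBJ2-7 clones and 61.3% ± 7.20 of TRBJ2-1 clones, shares that the 50% rule partly fixes. For TRBJ2-4 this share was 48.7% ± 6.61, for TRBJ2-5 46.3% ± 6.41, for TRBJ2-2 42.7% ± 3.24 and for TRBJ2-3 38.2% ± 7.48 (SD, n = 6 libraries each).

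One TRBJ2-4 receptor recurred within and between libraries. It joined TRBV13-2 to TRBJ2-4 in a CDR3 of 14 residues, and the same amino acids were written by 9 different base sequences. CTX2 held 6 of them in 158 cells, which were 14.6% of its 1085 TRB cells, and no cell held more than 1. CTX held 1 in 3 cells (0.564% of its TRB cells) and Combined 3 in 1 cell each (0.0417% of 7188). None was found in CSF1R, where 0 cells allow a share of up to 0.346%, in PBS2, where the limit was 0.694%, or in PBS1, where it was 1.56%. By sample name CTX2 and Combined belong to the JR set and CTX to the numbered set. The receptor was singled out after its values were seen, so these shares are a description, and intervals and limits of this kind cover counting error only. The base sequences are shown because the differences between them are what separates the clones, with the kept TRBJ2-4 tail in capitals:
CTX2, 86 cells: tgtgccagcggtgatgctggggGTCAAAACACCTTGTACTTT
CTX2, 56 cells: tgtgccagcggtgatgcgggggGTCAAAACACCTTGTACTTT
CTX2, 7 cells: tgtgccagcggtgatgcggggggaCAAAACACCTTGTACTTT
CTX2, 4 cells: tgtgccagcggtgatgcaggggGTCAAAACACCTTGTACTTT
CTX2, 3 cells: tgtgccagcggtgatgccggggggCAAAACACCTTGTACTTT
CTX2, 2 cells: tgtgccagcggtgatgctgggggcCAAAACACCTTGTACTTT
CTX, 3 cells: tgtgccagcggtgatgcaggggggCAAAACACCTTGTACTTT
Combined, cell 1: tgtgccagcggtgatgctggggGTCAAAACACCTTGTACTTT
Combined, cell 2: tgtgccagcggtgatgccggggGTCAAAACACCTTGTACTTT
Combined, cell 3: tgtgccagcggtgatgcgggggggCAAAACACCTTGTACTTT

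All the differences from the 86-cell sequence lay at positions 18 and 24, counted from 1 at the first base of the CDR3, which are base 3 of codons 6 and 8. These clones were chosen for having the same amino acids, so only differences that keep the residues could appear. Position 18 showed T18G, T18A and T18C, and position 24 showed T24A, T24G and T24C. Where position 24 differed, the capitals begin after it, since the unbroken match to the TRBJ2-4 tail starts there. The sequence of cell 1 of Combined was base for base that of the 86-cell clone of CTX2. Its alpha chain was another one, TRAV6-5 with TRAJ31, and the cells of the shared sequence had no barcode in common.

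In 9 of these 10 clones the most common alpha chain joined TRAV7-1 to TRAJ22. Of the 157 cells with a productive alpha contig, 154 carried that pair, against 11 of 8268 cells with other beta chains. Within CTX2 the counts were 149 of 151 cells with the receptor and 2 of 831 other cells (0.241%, exact 95% interval 0.0292 to 0.867). In CTX they were 3 of 3 against 0 of 461, and in Combined 2 of 3 against 7 of 5725. The other cells of Combined include those of a near relative of the receptor, described below, of which 5 carried the pair. Mouse TRAV genes have close copies, so the assignment of reads to TRAV7-1 rather than a copy is uncertain. The alpha CDR3s also differed in bases, with 7 sequences among the 9 clones. Those of the 3 largest clones of CTX2 and of the CTX clone, at 36 bases each, are shown because the first 3 wrote the same amino acids and the last did not:
Alpha chain of the 86-cell clone of CTX2: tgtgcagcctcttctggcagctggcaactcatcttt
Alpha chain of the 56-cell clone of CTX2: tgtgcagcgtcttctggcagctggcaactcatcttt
Alpha chain of the 7-cell clone of CTX2: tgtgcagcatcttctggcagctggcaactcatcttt
Alpha chain of the 3-cell clone of CTX: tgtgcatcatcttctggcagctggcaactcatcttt

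Support for the contigs behind these clones varied. In the 10 clones the median beta contig rested on 6 to 74 UMIs, and all 86 beta contigs of the largest clone were marked high-confidence. The lowest median, 6 UMIs, was that of cell 1 of Combined, the cell with the shared base sequence and the other alpha chain. Of its 2 beta contigs of this sequence 1 was marked high-confidence, and in the CTX clone 3 of 4 were. A near relative led the Combined library, where it held 7 cells. It used TRBV13-2 and TRBJ2-4, differed from the 86-cell sequence by G22A, which changes 1 residue, and paired with TRAV7-1 and TRAJ22 in 5 of its 6 cells with an alpha chain:
Combined, 7 cells: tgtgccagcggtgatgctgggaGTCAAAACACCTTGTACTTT

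Within 1 residue of the receptor there were 14 clones in 174 cells of 4 libraries, CTX, CTX2, Combined and PBS2. TRBV13-2 joined to TRBJ2-4 was found in every library, with 5 clones in CTX, 16 in CTX2, 10 in CSF1R, 106 in Combined, 4 in PBS2 and 1 in PBS1. TRBJ2-4 made up 18.8% of TRBV13-2 clones in CTX2, against 7.46% of the other clones there. In the remaining libraries it made up 4.35% to 10.2% of TRBV13-2 clones. The 16 clones of CTX2 include the 6 base sequences of the receptor itself.

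**Figure D1:**
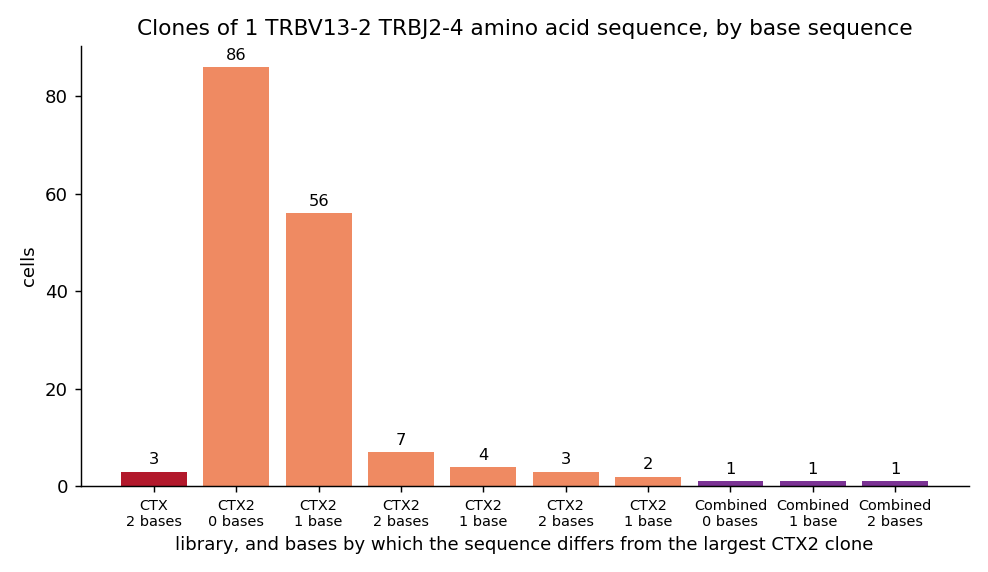
Cells carrying each base sequence of the TRBV13-2 and TRBJ2-4 receptor that kept the same amino acids, by library, with the number of cells above each bar. CTX2 held 6 sequences, from 86 cells to 2, CTX held 1 in 3 cells, and Combined held 3 in 1 cell each.

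Receptors written by more than 1 base sequence in a library were few. Within single libraries, 51 of 6171 TRBJ2 receptors, counted by TRBV gene, J gene and amino acids, had more than 1 base sequence, against 21 of 3922 TRBJ1 receptors. Combined, the largest library, held 46 of the 51 and 19 of the 21, so these counts mostly describe that library. In the sums over libraries, receptors with more than 1 base sequence were spread over the members as follows. TRBJ2-7 had 20 in 1560 receptors, TRBJ2-4 11 in 838, TRBJ2-3 10 in 924, TRBJ2-1 5 in 1007, TRBJ2-5 3 in 1220 and TRBJ2-2 2 in 622. Outside the recurrent receptor no TRBJ2 case had more than 3 base sequences. Those of 3 that held the most cells were TRBV13-1 with TRBJ2-7 in CTX, in clones of 14, 1 and 1 cells, and TRBV5 with TRBJ2-1 in CTX2, in clones of 11, 3 and 2 cells.

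The TRBJ2 cluster was used by more clones than TRBJ1 in every library. Its share of clones was 65.8% in CTX, 62.6% in CTX2, 61.1% in CSF1R, 60.9% in Combined, 63.4% in PBS2 and 57.4% in PBS1. CTX was highest and PBS1 lowest, and the exact 95% interval of PBS1, 48.8% to 65.7%, covered the values of all the others but CTX. The mean was 61.9% ± 2.82 (SD, n = 6).

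Treated libraries averaged 62.6% ± 2.28 (SD, n = 4), against 57.4% in the untreated library PBS1, and all 4 treated values were above it. The tags of these 4 libraries differ and the labels do not define them. Whether they had the same regimen is therefore not known, and the SD may include such differences. Within the numbered libraries the difference was 6.01 points, and both JR libraries were treated. The difference of 5.17 percentage points had p = 0.4 in a two-sided exact permutation test, in which 4 libraries against 1 cannot go below 0.2. It was 2.17 points with PBS2 counted as untreated (exact permutation p = 0.533, smallest possible 0.0667) and 5.33 points with PBS2 counted as treated (exact permutation p = 0.167, the smallest possible). With so few untreated libraries none of these tests could pass 0.05, and they do not settle whether TRBJ2 use differed. Among the members, TRBJ2-1 was 10.2% ± 2.01 in treated libraries (SD, n = 4) against 12.8% in PBS1, which treated CTX2 also reached. TRBJ2-2 was 5.98% ± 1.54 in treated libraries against 3.55% in PBS1, where it rested on 5 clones, and no test was made of single members.

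Within the cluster TRBJ2-7 was the most used member and TRBJ2-2 the least. The TRBJ2-7 share of clones was 18.5% in CTX, 15.2% in CTX2, 16.4% in CSF1R, 15.4% in Combined, 14.2% in PBS2 and 14.2% in PBS1, with a mean of 15.6% ± 1.62. It ranked first in 5 of 6 libraries, and in PBS2 TRBJ2-5 did. TRBJ2-2 averaged 5.53% ± 1.54, with 7.59% in CTX, 3.89% in CTX2, 6.14% in CSF1R, 6.27% in Combined, 5.72% in PBS2 and 3.55% in PBS1, and was last in all 6.

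TRBJ2-5 averaged 12.2% ± 1.41 of clones, between 10.6% in PBS1 and 14.7% in PBS2. TRBJ2-1 averaged 10.9% ± 1.91, between 7.96% in CSF1R and 12.8% in CTX2. TRBJ2-3 was the steadiest member, at 9.43% ± 0.239, with every library between 9.09% and 9.73%. TRBJ2-4 averaged 8.26% ± 0.773, between 7.09% in PBS1 and 9.34% in CTX2. As a description over the 6 libraries, the TRBJ gene whose clone shares were most like those of TRBJ2-2 was TRBJ2-7 and the reverse (Pearson r = 0.76). For TRBJ2-1 it was TRBJ1-5 (r = 0.75), for TRBJ2-4 TRBJ1-2 (r = 0.74), for TRBJ2-3 TRBJ2-4 (r = 0.63) and for TRBJ2-5 TRBJ1-3 (r = 0.42), and the small PBS1 library enters all of them.

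Neighbours in this order were compared within libraries by a two-sided exact sign-flip permutation test, whose smallest p with 6 libraries is 0.03125. None of the 5 steps (0%) passed 0.05 after Benjamini-Hochberg adjustment, and 2 of them (40%) did before it. TRBJ2-4 exceeded TRBJ2-2 by 2.73 points (SD 1.56) and TRBJ2-3 exceeded TRBJ2-4 by 1.17 points (SD 0.651), each in 6 of 6 libraries, with exact p = 0.03125 and adjusted p = 0.0781. TRBJ2-7 exceeded TRBJ2-5 by 3.47 points (SD 2.40) in 5 of 6 libraries, with exact p = 0.0625 and adjusted p = 0.104. TRBJ2-5 and TRBJ2-1 differed by 1.30 points (SD 2.58, exact p = 0.281) and TRBJ2-1 and TRBJ2-3 by 1.45 points (SD 1.88, exact p = 0.156), so the order of those 3 genes is not resolved.

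**Figure D2:**
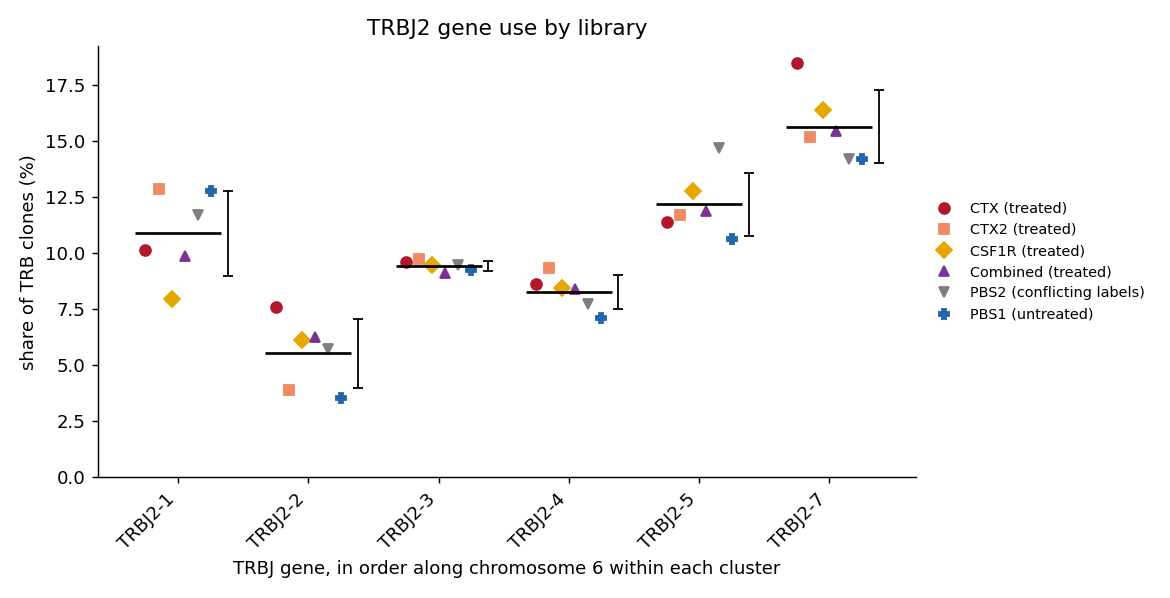
Share of TRB clones that used each TRBJ2 gene, in percent, 1 symbol per library, with the mean as a line and the SD over the 6 libraries as a bar. TRBJ2-7 was highest on average at 15.6%, TRBJ2-2 lowest at 5.53%, and TRBJ2-3 had the narrowest spread, 9.09% to 9.73%. That spread was narrower than counting error.

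Counting cells in place of clones moved single members in single libraries, where a large clone carried them. Here a cell was counted once for each of its clones. In CTX2 TRBJ2-4 was used by 9.34% of clones and 18.0% of cells, and TRBJ2-7 by 15.2% of clones and 21.0% of cells. In CTX TRBJ2-5 was used by 11.4% of clones and 21.1% of cells, and in PBS2 by 14.7% of clones and 18.9% of cells. In PBS1 TRBJ2-4 was used by 7.09% of clones and 13.5% of cells. CSF1R and Combined, whose clones were nearly all single cells, shifted by less than 1 point for every member. The cluster as a whole held 64.0% ± 4.15 of cells (SD, n = 6).

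D gene use differed between the clusters, in the direction that the order of the locus sets in advance. Among TRBJ2 clones with a called D gene, TRBD2 was called in 50.3% in CTX, 53.4% in CTX2, 57.1% in CSF1R, 55.1% in Combined, 54.0% in PBS2 and 68.8% in PBS1. Among TRBJ1 clones the share was 12.5% in CTX, 7.69% in CTX2, 7.17% in CSF1R, 7.68% in Combined, 13.1% in PBS2 and 7.89% in PBS1. The lowest TRBJ2 value lay far above the highest TRBJ1 value. The means were 56.4% ± 6.44 and 9.34% ± 2.71 (SD, n = 6 each), a difference of 47.1 points (SD 8.08), in the same direction in 6 of 6 libraries (two-sided exact sign-flip permutation p = 0.03125, the smallest possible). Because TRBD2 lies downstream of the TRBJ1 genes, this direction was known before the test, and the p-value adds no support of its own. The difference was 47.3 points within the 4 numbered libraries and 46.6 within the 2 JR libraries. In sum TRBD2 was called in 2715 of 4925 TRBJ2 clones with a D gene and in 221 of 2762 TRBJ1 clones.

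A D gene was called in 79.4% ± 2.17 of TRBJ2 clones and 68.2% ± 2.81 of TRBJ1 clones. TRBD1 is 12 bases long and TRBD2 14, and a few kept bases decide the call, so a D call carries its own error. The TRBD2 calls on TRBJ1 clones, which the order of the locus does not normally allow, give the size such calls reached.

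TRBJ2-2 stood lowest among the members for TRBD2. Of its clones with a D gene, 47.6% carried TRBD2 in CTX, 43.8% in CTX2, 35.9% in CSF1R, 41.6% in Combined, 36.8% in PBS2 and 33.3% in PBS1. The PBS1 value was 1 of only 3 clones, and CTX2 and PBS2 had 16 and 19 such clones, while each library counts equally in the means. The TRBD2 share of TRBJ2-2 was 39.8% ± 5.40 on average and 17.9 points (SD 11.8) under the other TRBJ2 clones. It was lower in 6 of 6 libraries, a difference looked at after the values were seen and not tested. The other 5 members averaged 55.4% ± 9.98 for TRBJ2-1, 55.5% ± 4.75 for TRBJ2-7, 58.4% ± 13.9 for TRBJ2-5, 59.0% ± 11.7 for TRBJ2-4 and 62.5% ± 6.37 for TRBJ2-3. None of them lay on 1 side of the remaining TRBJ2 clones in all 6 libraries.

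**Figure D3:**
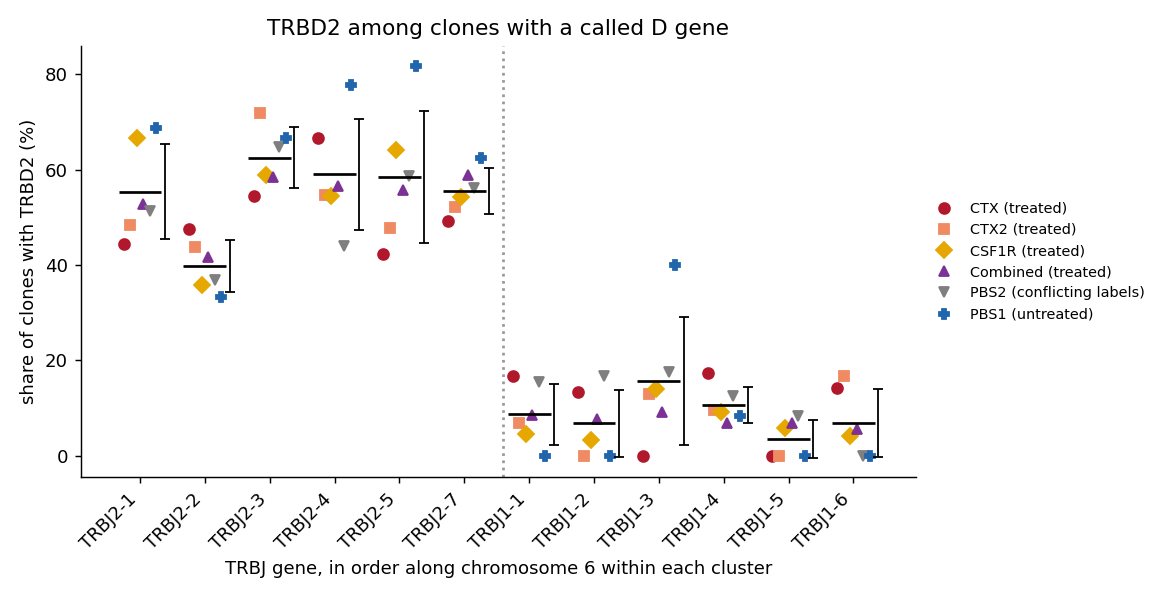
Share of clones with a called D gene that carried TRBD2, in percent, for each TRBJ2 and TRBJ1 gene, 1 symbol per library, with the mean and the SD over 6 libraries. TRBJ2 members averaged from 39.8% for TRBJ2-2 to 62.5% for TRBJ2-3, and the TRBJ1 genes stood below them on average.

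TRBJ2 clones as a group did not have longer CDR3s than TRBJ1 clones beyond the spread. The mean over clones was 41.3 ± 0.246 bases for TRBJ2 and 41.2 ± 0.634 bases for TRBJ1 (SD, n = 6), a difference of 0.124 bases (SD 0.852, two-sided exact sign-flip permutation p = 0.75). TRBJ2 was longer in 5 libraries, by 0.192 in CSF1R to 0.943 bases in CTX2, and shorter by 1.51 in PBS1, which held only 81 TRBJ2 and 60 TRBJ1 clones. Within the numbered libraries the difference was -0.119 bases and within the JR libraries 0.609 bases. The near equality of the totals was made of unequal pieces. TRBJ2 clones matched 1.22 fewer bases of their J tails (SD 0.189, fewer in 6 of 6 libraries) and had 1.34 more bases before the match (SD 0.686, more in 6 of 6), as a description. Bases before the match can include J bases upstream of the tail, and no value here separates them from V, D and added bases.

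Members differed more among themselves. TRBJ2-7, the member with the shortest tail, had CDR3s of 39.7 bases in CTX, 39.3 in CTX2, 39.2 in CSF1R, 39.2 in Combined, 38.8 in PBS2 and 37.5 in PBS1. Against all other TRB clones of the same library the difference was -2.80 bases on average (SD 0.960), with 38.9 against 41.7 bases, and it was shorter in 6 of 6 libraries. TRBJ2-1 was longer than the other clones by 1.27 bases (SD 0.369) and TRBJ2-4 by 0.763 bases (SD 0.726), each in 6 of 6 libraries. For these 3 genes the exact sign-flip permutation p was 0.03125 and the adjusted p 0.0536. Within the numbered libraries the differences were -2.97 bases for TRBJ2-7, 1.25 for TRBJ2-1 and 0.761 for TRBJ2-4, and within the JR libraries -2.46, 1.29 and 0.767 bases. The TRBJ2-4 difference was 0.492 bases without PBS1. It was 0.614 bases with only the TRB contig of most UMIs in each cell (exact permutation p = 0.125) and 0.692 bases without cells of 2 or more TRB contigs (exact permutation p = 0.0625), so it did not pass before adjustment under either choice.

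TRBJ2-3 was longer by 1.85 bases (SD 1.61) and TRBJ2-2 by 1.48 bases (SD 1.14), each in 5 of 6 libraries with PBS1 the exception (exact permutation p = 0.0625, adjusted 0.0833). TRBJ2-5 differed by -0.297 bases (SD 0.642, exact permutation p = 0.406). Over all 12 TRBJ genes tested, 0 (0%) passed 0.05 after adjustment and 7 (58.3%) before it, 4 of them longer (33.3%) and 3 shorter (25%). The TRBJ2 members among these were 2 of the longer and 1 of the shorter, so the members' share was near that of all TRBJ genes.

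Length before the tail varied less between members than the tail itself. The bases ahead of the kept J tail averaged 24.7 ± 0.697 in TRBJ2-7, 24.6 ± 0.374 in TRBJ2-1, 24.1 ± 1.37 in TRBJ2-4, 23.8 ± 1.40 in TRBJ2-3, 23.5 ± 0.537 in TRBJ2-5 and 22.3 ± 1.05 in TRBJ2-2. The tail kept averaged 14.2 bases in TRBJ2-7, 17.6 in TRBJ2-5, 17.9 in TRBJ2-1 and in TRBJ2-4, 19.2 in TRBJ2-3 and 20.4 in TRBJ2-2. The gene with the longest tail had the fewest bases before it and the gene with the shortest tail the most, where each tail ends by the 50% rule. Within TRBJ2, clones with TRBD2 had CDR3s of 43.2 ± 0.454 bases, those with TRBD1 41.2 ± 0.503 and those with no D call 37.6 ± 0.429 (SD, n = 6). TRBD2 clones were the longer in 6 of 6 libraries, by 1.95 bases (SD 0.217). These groups are set by the D call, which needs D bases kept in the CDR3, so their lengths are not independent of the grouping. TRBD2 is itself 14 bases long and TRBD1 12.

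**Figure D4:**
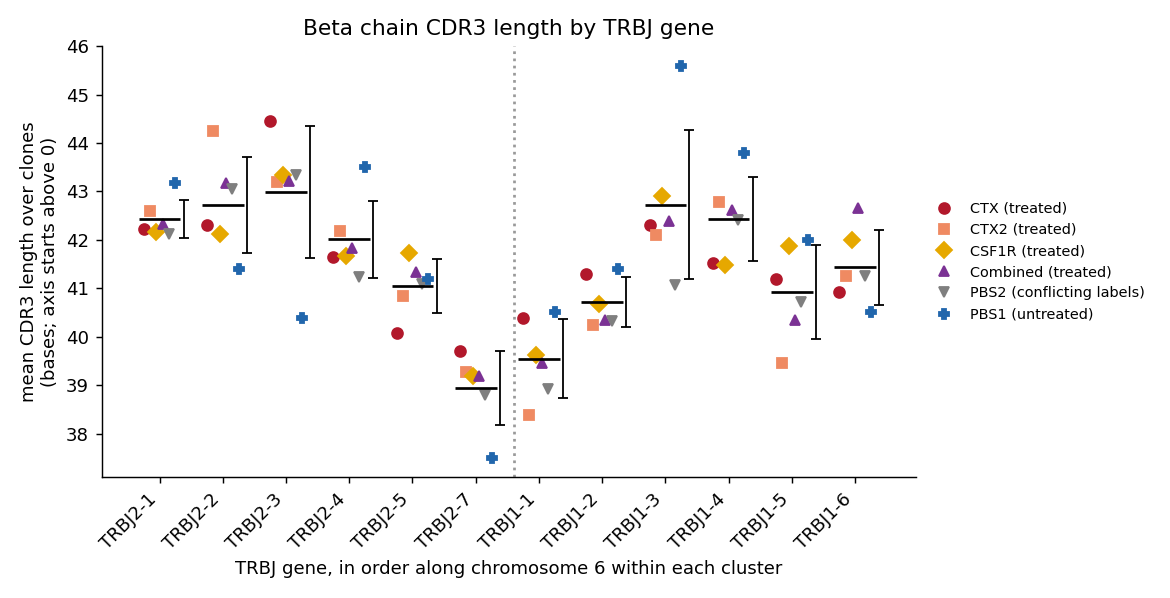
Mean CDR3 length over clones, in bases, for each TRBJ2 and TRBJ1 gene, 1 symbol per library, with the mean and SD over 6 libraries on an axis that starts above 0. TRBJ2-7 averaged 38.9 bases and lay below the other 5 TRBJ2 genes, whose means ran from 41.0 to 43.0 bases.

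Most clones of each common V gene were joined to TRBJ2, averaged over the libraries. Among the 9 TRBV genes used by at least 5% of clones, the TRBJ2 share ran from 55.0% ± 3.07 in TRBV20 clones to 65.0% ± 10.2 in TRBV1 clones (SD, n = 6). TRBV4 clones joined TRBJ2 in 64.9% ± 8.25, TRBV13-3 in 63.5% ± 6.39, TRBV13-2 in 62.7% ± 6.39 and TRBV5 in 62.2% ± 5.02. TRBV31 stood at 60.6% ± 6.64, TRBV19 at 59.2% ± 6.58 and TRBV13-1 at 56.1% ± 7.28.

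Of 12 TRBV genes tested against all other clones, 0 (0%) passed 0.05 after adjustment and 2 (16.7%) before it, both with less TRBJ2. TRBV20 clones used TRBJ2 in 55.0% against 62.3% of other clones, a difference of -7.25 points (SD 4.69). TRBV13-1 clones used it in 56.1% against 62.5%, a difference of -6.43 points (SD 5.35). That difference was only -0.949 points in Combined, the largest library, and -13.9 in PBS1, the smallest. With 1 library left out its mean was -7.53 to -4.94 points. Both V genes were lower in 6 of 6 libraries, with exact sign-flip permutation p = 0.03125 and adjusted p = 0.188. Within the numbered libraries the differences were -6.26 points for TRBV20 and -7.82 for TRBV13-1, and within the JR libraries -9.24 and -3.66 points. TRBV31 is the gene that lies downstream of both clusters in inverted orientation and joins by inversion, and its share was within the range of the others.

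By member, TRBV13-2 was the most frequent partner in pooled clones of TRBJ2-1 (139 of 1013 clones), TRBJ2-2 (96 of 624), TRBJ2-4 (142 of 855), TRBJ2-5 (190 of 1223) and TRBJ2-7 (229 of 1581). TRBJ2-3 was the exception, with TRBV5 in 110 of 935 clones and TRBV13-1 and TRBV13-2 in 107 each. Combined supplied most pooled clones.

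Single V to J pairs were compared in a search made after the values were seen. Of 108 pairs of the 9 V genes with all 12 TRBJ genes, 0 (0.0%) passed 0.05 after adjustment, with a lowest adjusted p of 0.422 in the exact sign-flip permutation test. Before adjustment 7 (6.48%) did, 3 higher (2.78%) and 4 lower (3.7%). The TRBJ2 members accounted for 1 of the 3 and 2 of the 4, and all 3 pairs were of TRBJ2-5. TRBJ2-5 made up 13.2% of TRBV5 clones in CTX, 16.7% in CTX2, 14.7% in CSF1R, 15.7% in Combined, 15.2% in PBS2 and 27.3% in PBS1, against 11.2%, 11.2%, 12.5%, 11.4%, 14.6% and 9.23% of the other clones. The mean difference was 5.42 points (SD 6.43), and 2.90 points without PBS1. TRBJ2-5 was less used by TRBV19, at 8.32% against 12.6% of other clones (-4.31 points, SD 1.80), and by TRBV13-1, at 8.01% against 12.6% (-4.60 points, SD 3.68), each lower in 6 of 6 libraries. The TRBV13-1 value includes a share of 0% in PBS1, and was -5.21 to -3.25 points with 1 library left out. With no pair past the adjusted threshold, these 3 pairs are given as values only.

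**Figure D5:**
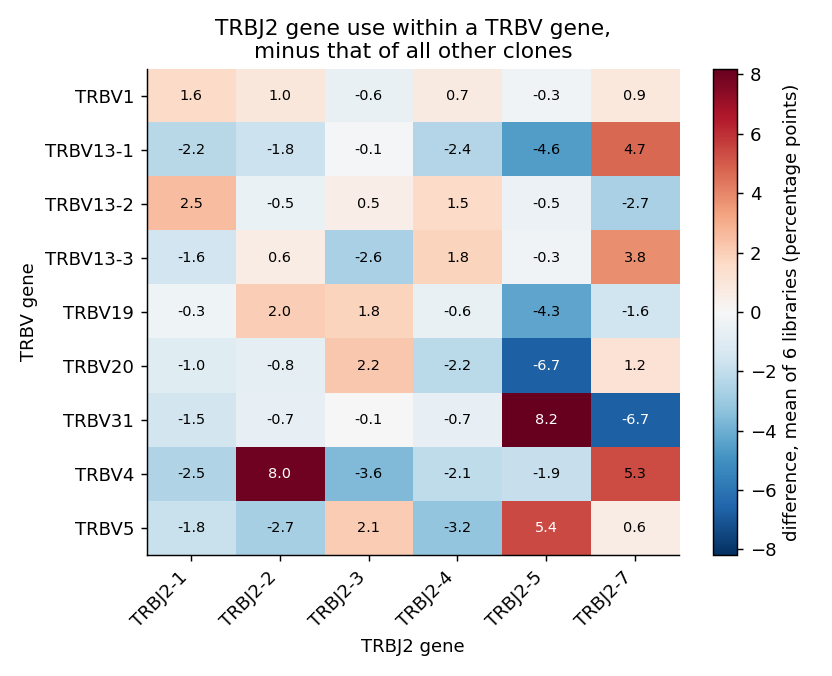
Mean difference over 6 libraries, in percentage points, between the share of a TRBJ2 gene among the clones of 1 TRBV gene and its share among all other TRB clones. TRBJ2-5 was 5.42 points higher in TRBV5 and 4.31 points lower in TRBV19, and no pair passed after adjustment. The largest means, 8.20 points for TRBV31 with TRBJ2-5 and 7.96 for TRBV4 with TRBJ2-2, did not have the same direction in every library. Libraries count equally, and some pairs held few or 0 clones in a library.

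The share of expanded clones did not differ between the clusters beyond the spread between libraries. A clone of 2 or more cells was called expanded. The expanded share of TRBJ2 clones was 12.3% in CTX, 11.8% in CTX2, 2.05% in CSF1R, 0.796% in Combined, 3.92% in PBS2 and 8.64% in PBS1, against 8.89%, 10.4%, 1.17%, 0.717%, 3.40% and 10% of TRBJ1 clones in the same libraries. TRBJ2 was higher in 5 of 6 libraries and lower in PBS1, and the mean difference was 0.820 points (SD 1.58, two-sided exact sign-flip permutation p = 0.219). It was 0.865 points within the numbered libraries and 0.731 within the JR libraries, 1.26 points without PBS1 and 0.301 points without CTX. Testing each of the 12 TRBJ genes against all others gave 0 calls (0%) by the exact sign-flip permutation test after adjustment and 0 (0%) before it.

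The largest clones carried several of the members. Of 21 clones with 10 or more cells, 14 used TRBJ2, with 4 of TRBJ2-5, 3 of TRBJ2-4, 3 of TRBJ2-7, 2 of TRBJ2-1 and 1 each of TRBJ2-2 and TRBJ2-3. Among all clones of 2 or more cells, 136 of 205 used TRBJ2. Of clones of any size 6231 of 10174 did (61.2%), so both counts were near the share of all clones. The 2 clones of TRBJ2-4 in CTX2 were sequences of the recurrent receptor. CTX2 held 9 of the 14, CTX 3, and PBS2 and PBS1 1 each. CSF1R and Combined held none. The leading TRBJ2 clone of every library is shown because these clones set the shares of cells given above, with the kept J tail in capitals (that of CTX2 used TRBJ2-7, not the recurrent receptor):
CTX, TRBV2 and TRBJ2-5: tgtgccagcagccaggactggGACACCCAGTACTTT
CTX2, TRBV4 and TRBJ2-7: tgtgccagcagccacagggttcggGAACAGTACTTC
CSF1R, TRBV1 and TRBJ2-7: tgcagtgcagaatggggcgcggAGTACTTC
Combined, TRBV13-2 and TRBJ2-4: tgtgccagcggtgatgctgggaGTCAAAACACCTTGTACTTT
PBS2, TRBV13-2 and TRBJ2-5: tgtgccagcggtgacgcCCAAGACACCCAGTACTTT
PBS1, TRBV14 and TRBJ2-4: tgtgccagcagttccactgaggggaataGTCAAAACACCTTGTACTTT

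The CTX2 clone held 119 cells, 11.0% of that library's TRB cells, and its median beta contig rested on 23 UMIs. The CTX clone held 42 cells (7.89%), the PBS2 clone 28 (6.48%), the PBS1 clone 17 (8.85%), the CSF1R clone 8 (0.924%) and the Combined clone 7 (0.0974%). Alpha chains agreed within these clones: all 37 CTX cells with an alpha contig shared the same one, as did 109 of 113 in CTX2, 4 of 5 in CSF1R, 5 of 6 in Combined, 20 of 25 in PBS2 and 15 of 16 in PBS1. The leading clone of PBS2 kept all 19 bases of the TRBJ2-5 tail and that of PBS1 all 20 of TRBJ2-4, while the CSF1R clone kept 8 of the 15 of TRBJ2-7 in a CDR3 of 30 bases. Next in size in CTX were TRBV19 with TRBJ2-5 (18 cells) and TRBV13-1 with TRBJ2-7 (14 cells), and in CTX2 the recurrent TRBV13-2 and TRBJ2-4 sequences of 86 and 56 cells. In the other libraries the next clones held between 3 and 9 cells.

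Few TRBJ2 receptors were shared by libraries. By base sequence 10 TRBJ2 clones were found in 2 libraries and 0 in more, and none of them sat on a shared barcode. By TRBV gene, J gene and amino acids, 49 of 6120 TRBJ2 receptors were in 2 or more libraries (0.801%, exact 95% interval 0.593 to 1.06), against 31 of 3889 TRBJ1 receptors (0.797%, 0.542 to 1.13). TRBJ2-7 had 17 of 1542 shared (1.10%) and TRBJ2-2 1 of 621 (0.161%). Shared TRBJ2 receptors had a mean CDR3 of 38.4 bases, and all TRBJ2 receptors 41.5 bases. Besides the 86-cell sequence, the only shared base sequence with more than 2 cells in a library joined TRBV1 to a full TRBJ2-7 tail, in 1 cell of CSF1R and 4 cells of PBS2:
TRBV1 and TRBJ2-7: tgcagtgcagacTATGAACAGTACTTC

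Nonproductive rearrangements, which encode no working chain, were compared with the productive ones. In called cells, TRBJ2 made up 6231 of 10174 distinct productive rearrangements and 192 of 373 nonproductive ones (51.5%, exact 95% interval 46.3 to 56.7). By library the nonproductive counts were 13 of 27 in CTX, 8 of 16 in CTX2, 24 of 42 in CSF1R, 130 of 257 in Combined, 7 of 17 in PBS2 and 10 of 14 in PBS1. The productive share was higher in 5 of 6 libraries and lower by 14.0 points in PBS1. The means were 61.9% ± 2.82 productive and 53.1% ± 10.3 nonproductive, a difference of 8.81 points (SD 12.8, two-sided exact sign-flip permutation p = 0.156), with 7.47 points within the numbered libraries and 11.5 within the JR libraries. Among high-confidence contigs alone the difference was -2.08 points, from 5 to 84 nonproductive rearrangements per library, so no direction is given. By member, TRBJ2-1 was 10.9% of productive and 5.09% ± 4.18 of nonproductive rearrangements, and TRBJ2-7 15.6% and 16.7% ± 11.5 (SD, n = 6), without a test.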

How the data were processed

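T cell receptor contigs of single cells were read from 1 deposited table that holds, per contig, raw counts of reads and UMIs, beside contig length, cell call, V, D, J and C gene, productive status and CDR3. Cell Ranger 3.0.2 and the builds mm10 and GRCm38 are named in the submitters' processing notes. Of the 11 library names in the table, 6 were tied to a sample by number. The other 5 were not tied to a label and were not used, nor were the expression matrices.

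Productive TRB contigs of called cells were used with no UMI minimum, and doublets were kept. A clone was 1 TRBV gene and CDR3 base sequence per library, and all productive TRB contigs of a cell counted. Differences within a library were tested over the 6 libraries by sign-flip permutation, exact and two-sided, with Benjamini-Hochberg adjustment over every gene or pair tested. Single genes needed at least 5 clones in each library. The V to J pairs had no such minimum, and some held 0 clones in a library. Single shares have 95% intervals by the exact Clopper-Pearson method, and a count of 0 the limit of 3 counts, for counting error only.

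The genes named are all 6 members, TRBD1 and TRBD2, TRBV genes used by at least 5% of clones, each member's most frequent TRBV partner, the leading TRBJ2 clones of each library and the base sequences shared by the most libraries. The members and these lists were chosen with earlier results of these data known, and the V to J pairs, the recurrent receptor and its alpha chain after their values were seen. Gene positions came from the RefSeq table of GRCm38.p6, and J tails from the contigs themselves, since no germline sequence was used. Alternatives varied the contig and cell filters, the definition of a clone and the libraries. Software was Python 3.11.15 with pandas 2.3.3, scipy 1.17.1, matplotlib 3.10.9 and numpy 2.4.6. On simulated data with the real library sizes (10174 clones), a length difference of 3.72 bases was recovered as 3.76. A TRBD2 difference of 47 points was recovered as 47.1, and an expanded share difference of 20 points as 22.3. The length and expanded share differences put in were far larger than those observed, so power at the observed size was not tested. Apart from these clones, 1000 null sets of 6 random normal values were drawn. A share of 0.031 of them passed 0.05, where 0.03125 was known, which checks only the arithmetic of the sign-flip test.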

Additional observations from a re-analysis of the deposited data

Results flagged for a closer look

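Among the 4 treated libraries, the CDR3 length of TRBJ2 clones minus that of TRBJ1 clones was 0.943 bases in CTX2, farther from its neighbours than the spread of the other libraries allowed by Dixon's criterion. By the same criterion CTX stood apart for TRBJ2-3, with a mean CDR3 of 44.4 bases, and for TRBJ2-7, with 39.7 bases. In all, 17 such sets of 4 libraries were looked at and 3 stood out, where chance picks about 1 in 20 sets. CTX had the most cells with more than 1 productive TRB and CTX2 the fewest, and the part of this in the lengths was not tested.

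TRBJ2 contigs also appeared in barcodes that were not called cells, which no comparison used. They were 1292 of 1873 productive TRB contigs there (69.0%, exact 95% interval 66.8 to 71.1), with a median of 1 UMI.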

How the results depend on the processing

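The shares of clones of the TRBJ2 cluster and of its 6 members moved by less than the spread between libraries under the contig filters, the definition of a clone and the sets of libraries tried. Counted by cells the cluster moved within that spread, but TRBJ2-4 came to 10.3% of cells, against 8.26% of clones, and TRBJ2-3 to 9.12%, against 9.43%. The TRBD2 share stayed higher in TRBJ2 than in TRBJ1 clones. With fewer libraries the exact test cannot reach 0.05: the TRBD2 difference was 47.3 points within the 4 numbered libraries (exact permutation p = 0.125), 46.6 within the 2 JR libraries (exact permutation p = 0.5) and 44.3 to 48.9 points with 1 library left out. For the same reason the number of calls before adjustment fell to 0 for the order of genes, for length by gene and for TRBJ2 share by TRBV gene, within either set and with any 1 library left out (0 to 0). Under the contig filters with all libraries, length by gene gave 5 to 7 such calls. The count was also 0 for the order of genes without cells of 2 or more TRB contigs, and the cause was not tested. The expanded share by gene gave 1 call before adjustment, a TRBJ1 gene, with only the TRB contig of most UMIs and 1 without cells of 2 or more TRB contigs. The length difference between clusters turned over, to -0.119 bases within the numbered libraries, -0.174 with each cell counted once and -0.0403 without CTX2 (-0.0403 to 0.451 over left-out libraries), and the cause was not tested. Productive minus nonproductive was -2.08 points in high-confidence contigs, where the few nonproductive rearrangements limit it, 6.84 with all full-length contigs not marked productive, and 6.12 to 13.4 with 1 library left out, the highest without PBS1. Treated minus untreated ran from 2.17 points, with PBS2 as untreated, to 8.67 points without cells of 2 or more TRB contigs. The recurrent receptor stayed between 14.5% and 14.9% of CTX2 cells in the alternatives chosen after seeing the data. No paired analysis of treated with untreated libraries was possible because no label ties a library to a mouse, while the other tests compare values within a library. Depth limits PBS1 most, with 81 TRBJ2 clones and 5 of TRBJ2-2, and the nonproductive counts.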
